A study of Homo sapiens with 6 samples.

Results

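The aminoacyl-tRNA synthetases are the enzymes that join each amino acid to its tRNAs, and their genes were taken from the table by symbol: EPRS1, any symbol of the form letter-ARS with an optional 1 or 2, and FARSA and FARSB. Of 60589 rows, 37 fitted this rule. The 17 whose symbol ends in 2 were counted as mitochondrial and the other 20 as cytosolic. RNA was sequenced from SNU449, an established line from a human hepatocellular carcinoma, at day 3 of treatment with a control siRNA (siControl, 3 libraries) or with an siRNA against MAD2L1, a spindle checkpoint protein (siMAD2L1, 3 libraries). The stated aim of the study was to learn what MAD2L1 does in this cancer. Both groups are the same line with an siRNA, and no untreated cells are among them. The titles name MAD2L1 for all 3 knockdown libraries, whereas the treatment field names MAD2L2 and MAD2L3 for replicates 2 and 3. The labels give neither the siRNA sequence nor a statement that replicates were separate cultures, and p-values therefore describe variation among these 6 libraries only.

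Charging takes place in 2 steps on 1 enzyme: the amino acid is activated with ATP and then moved to the end of the tRNA. The enzymes fall into class I and class II, which differ in the fold of the catalytic domain, and several cytosolic ones sit together in the multisynthetase complex around the scaffold proteins AIMP1, AIMP2 and EEF1E1. Mitochondria have a separate set, encoded in the nucleus and imported, which charges the tRNAs that the mitochondrial genome encodes. KARS1 and GARS1 are exceptions, since each gene makes both the cytosolic and the mitochondrial enzyme, and the fused enzyme EPRS1 charges both glutamate and proline. Many cytosolic synthetase genes are known targets of ATF4, the transcription factor of the amino acid and endoplasmic reticulum stress responses.

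The knockdown was read first. MAD2L1 stood at 14.5, 13.7 and 13.9 TPM (a level per transcript length, scaled to a fixed total in each library) in siControl replicates 1 to 3 and at 4.47, 0.795 and 2.40 TPM in siMAD2L1 replicates 1 to 3. The groups did not overlap, and replicate 1 kept the most MAD2L1 of the knockdown libraries. The siMAD2L1 mean was 18.2% of siControl, and the log2 difference was -2.22 (SE 0.36, adjusted p = 0.0105, limma). The call was lost when siControl replicate 1, 2 or 3 was left out (adjusted p = 0.0597, 0.0547 and 0.0572). MAD2L2, which the treatment field of replicate 2 names, stood at 145 ± 6.16 TPM in siControl, against 138 ± 15.3 in siMAD2L1 (SD, n = 3), with overlapping groups. Genes above 0 TPM numbered 22514 to 24258 per library, and TPM gives no read depth. These are bulk libraries, in which less RNA per cell and fewer cells that make an RNA cannot be told apart. The 13 mRNAs and the other genes of the mitochondrial genome took 15.2% to 15.4% of the TPM in siControl, against 9.21% to 10.9% in siMAD2L1, and since TPM has a fixed total, a smaller mitochondrial share raises the TPM of all other genes. Of 7 hepatocyte markers only FGB and SERPINA1 passed the filter, and ALB reached 0.451 TPM at most. The epithelial keratins KRT8 and KRT18 and the mesenchymal marker VIM were present. Other epithelial markers were low: EPCAM, at a mean of 0.323 TPM in siControl, did not pass, and CDH1 was at 1.27 TPM. Of 4 fibroblast and stellate markers 2 passed, the highest at a mean of 115 TPM over the 6 libraries. Of 4 leukocyte markers only CD68 passed, and no endothelial marker did. Some of these markers differed with the knockdown: KRT18 (log2 difference -0.55, adjusted p = 0.00662), KRT8 (-0.44, adjusted p = 0.0101) and FGB (-1.17, adjusted p = 0.0142) fell, and CD68 rose (1.05, adjusted p = 0.00114), while the leukocyte markers PTPRC and CD3E stood at or near 0. The part of any such shift in the synthetase values was not tested.

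All 37 synthetase genes were expressed above the filter, a mean of at least 1 TPM over the 6 libraries, so none was left out of the test for a low level. Differences are siMAD2L1 minus siControl on log2(TPM + 1), which understates the change of low genes, and a gene was called at an adjusted p under 0.05. Of the 37 genes, 6 were called lower in siMAD2L1 (16.2%), beside 6.23% of all 14790 genes tested. None was called higher by limma, beside 3.55% of all genes. At an unadjusted p under 0.05 in limma, 12 were lower and none higher. The share of all genes at that unadjusted threshold is not given, here or for the groups and lists below. Unadjusted counts therefore have no background beside them, and nothing is drawn from them. The called genes were the mitochondrial LARS2, FARS2 and SARS2 (3 of 17) and the cytosolic VARS1, FARSB and YARS1 (3 of 20). These counts are small. They ran from 0 to 13 when a library was left out, and no set test was made, so nothing particular to the synthetases is drawn from them.

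Over all 37 genes the median log2 difference was -0.23, beside -0.08 over all genes tested. Differences under 0 were found for 29 of the 37 (78.4%, against 59.9% of all genes). In 16 of the 37 (43.2%) every siMAD2L1 library lay below every siControl library, beside 21.5% of all genes, and in none did every siMAD2L1 library lie above, beside 11.3% of all genes. Summed over the family, the level was 2779, 2885 and 2678 TPM in siControl, against 2617, 2384 and 2567 TPM in siMAD2L1. The summed levels did not overlap, and the siMAD2L1 mean was 90.7% of siControl. By class, 3 of 18 class I genes and 3 of 18 class II genes were called lower (16.7% each, beside 6.23% of all genes). With a library left out the class I count ran from 0 to 6 and the class II count from 0 to 7. Class medians were -0.24 and -0.22. EPRS1, which joins an enzyme of each class, was counted in neither.

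**Figure D1:**
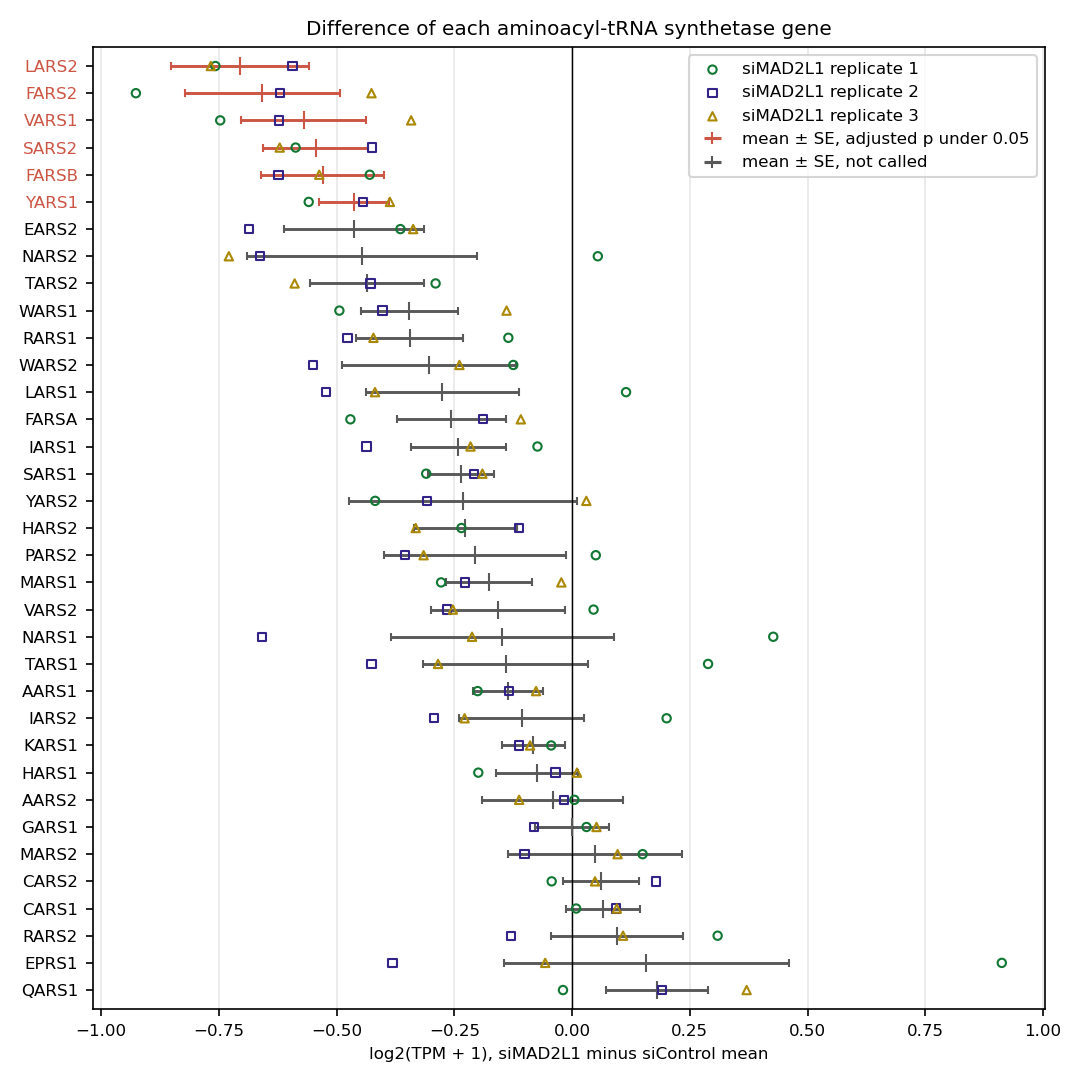
Log2 difference of 35 of the 37 synthetase genes (x axis, log2(TPM + 1), siMAD2L1 minus the siControl mean), with 1 symbol for each siMAD2L1 library and the mean ± SE from limma. The 6 called genes are at the top, from LARS2 at -0.71 to YARS1 at -0.46, and replicate 1 lies to the right of the other knockdown libraries in EPRS1, NARS1 and TARS1.

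Among the mitochondrial enzymes, LARS2, which charges leucine, showed the largest difference. It stood at 7.46, 6.89 and 6.68 TPM in siControl, against 3.73, 4.30 and 3.70 TPM in siMAD2L1. The siMAD2L1 libraries lay close together and well under the lowest control, and the mean was 55.8% of siControl (log2 difference -0.71, SE 0.15, adjusted p = 0.0249). FARS2, the single-chain mitochondrial enzyme for phenylalanine, was listed at 11.0, 10.3 and 9.59 TPM in siControl against 4.94, 6.35 and 7.41 TPM in siMAD2L1. The groups did not overlap, although the knockdown libraries spread widely, with replicate 1 lowest. The FARS2 log2 difference was -0.66 (SE 0.16, adjusted p = 0.0446), close to the threshold.

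SARS2 charges serine in mitochondria, and in siControl its TPM values were 18.3, 17.3 and 18.3, against 11.6, 13.1 and 11.3 in siMAD2L1. All 3 knockdown libraries lay well below the controls, at 66.9% of siControl in the mean (log2 difference -0.54, SE 0.11, adjusted p = 0.0239). In GENCODE 29 the gene AC011455.2 overlaps SARS2 over 15493 bases on the same strand, so reads could be split between both rows. AC011455.2 stood at a mean of 13.2 TPM in siControl, against 13.7 in siMAD2L1, with overlapping groups (adjusted p = 0.850), and how the authors' counting shared such reads is not known.

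LARS2, FARS2 and SARS2 charge 5 of the tRNAs of the mitochondrial genome, which are shown here to give the substrates of the 3 mitochondrial enzymes that fell, each read from GRCh38 chromosome M on the strand of the tRNA, 5′ to 3′, written with T, with the anticodon in capitals. LARS2 serves MT-TL1 (chrM:3230-3304) and MT-TL2 (chrM:12266-12336), FARS2 serves MT-TF (chrM:577-647), and SARS2 serves MT-TS1 (chrM:7446-7514, minus strand) and MT-TS2 (chrM:12207-12265).
MT-TL1: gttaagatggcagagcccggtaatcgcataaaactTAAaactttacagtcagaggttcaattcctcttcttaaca
MT-TL2: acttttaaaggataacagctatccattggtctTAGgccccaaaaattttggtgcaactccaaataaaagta
MT-TF: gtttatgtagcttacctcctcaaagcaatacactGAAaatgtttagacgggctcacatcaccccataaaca
MT-TS1: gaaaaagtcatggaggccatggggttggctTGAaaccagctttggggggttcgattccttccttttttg
MT-TS2: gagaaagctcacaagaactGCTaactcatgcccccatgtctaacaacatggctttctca
These tRNAs are 59 to 75 bases long, and their rows were mostly empty: MT-TS1 and MT-TS2 were listed at 0 in all 6 libraries, MT-TL1 was above 0 in siControl replicate 3 alone (5.11 TPM), MT-TF in siControl replicate 2 alone (10.99 TPM), and MT-TL2 reached 11.5 TPM at most. Of 22 mitochondrial tRNAs, 10 were listed at 0 throughout, 8 were tested and none was called by limma in either direction (none at an unadjusted p under 0.05). The tRNA substrates were therefore too sparse in these libraries to compare.

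The other 14 mitochondrial synthetases were not called. Their log2 differences ran from -0.46 (EARS2, adjusted p = 0.0923) to 0.10 (RARS2, adjusted p = 0.713). EARS2, the glutamate enzyme, and TARS2, the threonine enzyme, came nearest to a call. TARS2 stood at 23.2, 21.9 and 25.8 TPM in siControl, against 19.1, 17.3 and 15.3 TPM in siMAD2L1, with no overlap (log2 difference -0.44, SE 0.12, adjusted p = 0.0612). NARS2, the asparagine enzyme, had a difference of the same size (-0.45) but an SE of 0.24, because replicate 1 at 6.34 TPM lay among the controls while replicates 2 and 3 were at 3.46 and 3.26 TPM. The median over all 17 mitochondrial genes was -0.23, and in replicate 1 alone it was -0.09.

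The most abundant of the called genes was YARS1, the cytosolic tyrosine enzyme, the fifth highest synthetase in siControl. Its TPM values were 177, 186 and 177 in siControl, against 122, 132 and 138 in siMAD2L1. The gap between the groups exceeded the spread within either, and the siMAD2L1 mean was 72.4% of siControl (log2 difference -0.46, SE 0.07, adjusted p = 0.0107). YARS1 lost its call in 4 of 20 alternatives, fewer than any other called synthetase. Its start overlaps S100PBP on the opposite strand over 1387 bases, and S100PBP itself stood at 12.2 TPM in siControl, against 12.8 TPM in siMAD2L1 (adjusted p = 0.831).

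VARS1, the cytosolic valine enzyme, was at 36.0, 43.1 and 36.8 TPM in siControl, against 22.5, 24.7 and 30.2 TPM in siMAD2L1. Groups were separate, with siMAD2L1 replicate 3 nearest to the controls (log2 difference -0.57, SE 0.13, adjusted p = 0.0359). VARS2, the mitochondrial counterpart, gave 15.5 ± 1.82 TPM in siControl, against 13.8 ± 1.86 TPM in siMAD2L1 (SD, n = 3), with overlapping groups and a log2 difference of -0.16 (adjusted p = 0.525).

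Cytosolic phenylalanine charging needs both chains of a heterotetramer, the catalytic alpha chain from FARSA and the beta chain from FARSB. For FARSB the TPM values were 9.80, 10.1 and 11.2 in siControl, against 7.43, 6.37 and 6.83 in siMAD2L1, again without overlap (log2 difference -0.53, SE 0.13, adjusted p = 0.0439). For FARSA they were 78.9, 68.9 and 79.3 in siControl, against 54.2, 66.1 and 70.0 in siMAD2L1. Here siMAD2L1 replicate 3 lay above the lowest control, and FARSA was not called (log2 difference -0.26, SE 0.12, adjusted p = 0.206). The difference between the changes of both chains was not tested. FARSB, VARS1 and 15 uncalled members are rows whose identifier the authors joined to one from transcript assembly, which may hold more than the annotated transcripts.

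**Figure D2:**
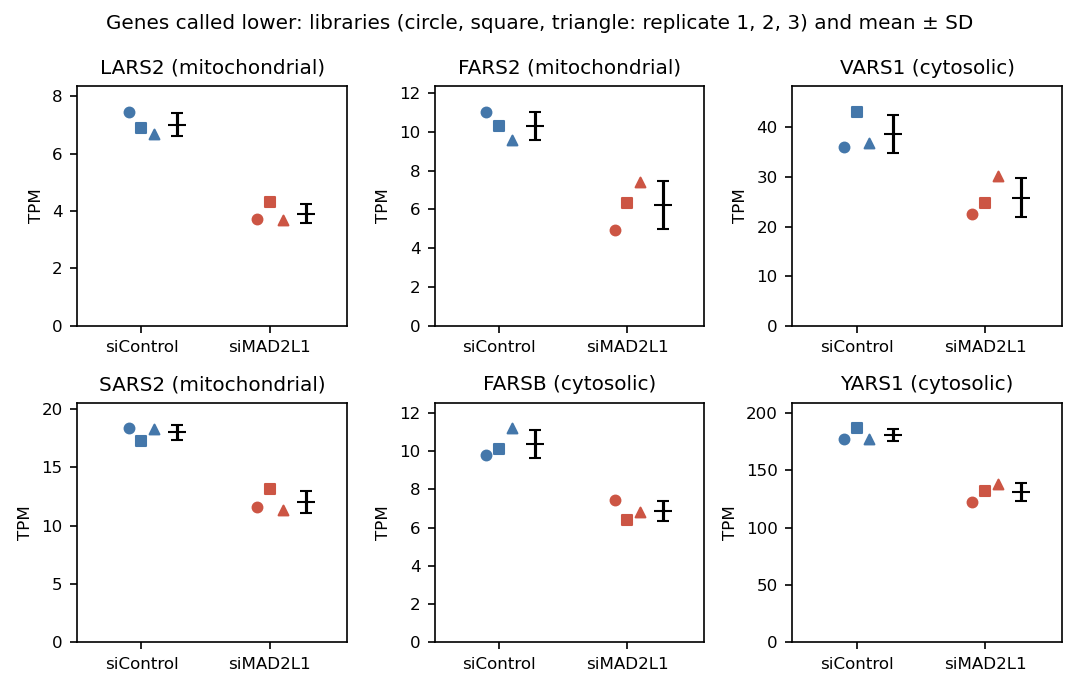
TPM of the 6 synthetase genes called lower in siMAD2L1 (y axes in TPM, from 0), with 1 point for each library and the mean ± SD of 3 libraries beside them. In every panel all siMAD2L1 points lie under all siControl points; LARS2 goes from a mean of 7.01 to 3.91 TPM and YARS1 from 180 to 131 TPM.

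All 6 called genes had a negative log2 difference in all 20 alternatives. For most alternatives this was fixed in advance, since every siMAD2L1 library lay below every siControl library in these genes. Only upper-quartile scaling, quantile normalization, the rescaled TPM and removal of the length trend could have turned a sign. Their calls were not fixed in this way. LARS2 lost its call in 9 of the 20, SARS2 in 8, FARSB in 11, VARS1 in 11 and FARS2 in 12. Leaving out 1 library decided many of these calls. Without siControl replicate 1 or 3 no synthetase was called, beside 1.27% and 1.53% of all genes called lower in those fits, and without siControl replicate 2 only YARS1 was, beside 1.81%. Without siMAD2L1 replicate 1 the synthetases called numbered 13, all lower, beside 11.5% of all genes. Without siMAD2L1 replicate 2 the called genes were LARS2, SARS2 and YARS1, and without replicate 3 they were VARS1, WARS1 and YARS1, beside 3.33% and 2.76% of all genes.

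The highest synthetase levels in siControl were those of GARS1, AARS1 and WARS1, the glycine, alanine and tryptophan enzymes, and none of them was called. GARS1 stood at 339, 373 and 323 TPM in siControl, against 352, 325 and 357 TPM in siMAD2L1, and its groups overlapped fully (log2 difference 0.00, adjusted p = 0.999). AARS1 was listed at 257, 276 and 245 TPM against 225, 236 and 246 TPM (log2 difference -0.14, adjusted p = 0.287), so that only siMAD2L1 replicate 3 reached the lowest control. WARS1, which interferon gamma is known to induce, was at 254, 256 and 230 TPM in siControl, against 175, 186 and 224 TPM in siMAD2L1. The WARS1 groups did not overlap, but the gap between siControl replicate 3 and siMAD2L1 replicate 3 was small (log2 difference -0.35, SE 0.10, adjusted p = 0.0757). SARS1, the fourth highest, followed with 184 ± 5.19 TPM in siControl, against 156 ± 6.91 TPM in siMAD2L1 (SD, n = 3; log2 difference -0.24, adjusted p = 0.0734). Lowest of all was MARS2, at 2.44 ± 0.26 TPM in siControl, against 2.56 ± 0.32 TPM in siMAD2L1 (SD, n = 3). WARS1 and SARS1 were not called in the comparison as made and were called in 2 alternatives each.

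**Figure D3:**
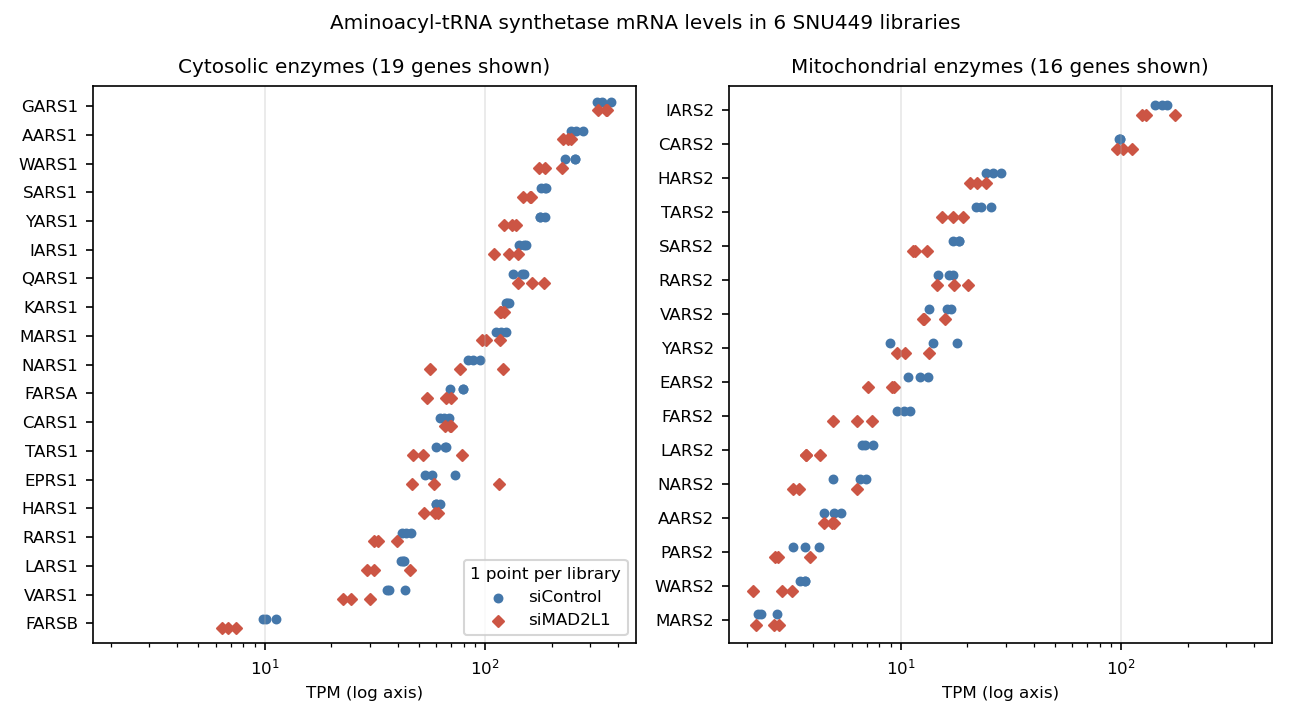
TPM of 35 of the 37 synthetase genes in each of the 6 libraries (x axes, TPM on a log axis; 1 point for each library, coloured by group), with the cytosolic and mitochondrial genes in separate panels, each ordered by the siControl mean, from GARS1 (345 TPM) and from IARS2 (152 TPM) down. The mitochondrial IARS2 reaches the levels of the upper part of the cytosolic panel and CARS2 those of its middle. Within the naming rule FARSB is the lowest cytosolic gene and MARS2, at 2.44 TPM, the lowest mitochondrial one.

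The 8 enzymes held in the multisynthetase complex, EPRS1, QARS1 and KARS1 among them, held none of the limma calls, and 2 of them were lower at an unadjusted p under 0.05. Of the 12 cytosolic genes outside it, 3 were called (25%). Beside both counts of calls stand 6.23% of all genes, which is no background for the unadjusted count. Medians were -0.13 for the complex and -0.19 outside it, and no test compares these groups. When siMAD2L1 replicate 1 was left out, limma called 3 of the 8 lower, and 11.5% of all genes in that fit. QARS1, the glutamine enzyme, had the highest log2 difference of the whole family. It stood at 146, 150 and 133 TPM in siControl, against 141, 163 and 185 TPM in siMAD2L1, with overlapping groups (log2 difference 0.18, SE 0.11, adjusted p = 0.338), and it was called higher in 1 alternative, the fit with library weights. KARS1, for lysine, had the smallest difference among the members whose groups were separate, with 124, 128 and 126 TPM against 122, 116 and 118 TPM (log2 difference -0.08, adjusted p = 0.484). Its separate groups show how small a gap can give a count of non-overlap.

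Replicate 1 of siMAD2L1 lay nearest to the controls in the median of this family. Its median log2 difference from the siControl mean was -0.09, against -0.35 and -0.23 for replicates 2 and 3. Over all genes tested the medians were 0.02, -0.15 and -0.12, in the same order, so the order of the replicates was the same there. Of the 37 genes, 8 lay above every control in replicate 1 (21.6%, beside 38.2% of all genes tested), 3 in replicate 2 (8.11%, beside 21.9%) and 4 in replicate 3 (10.8%, beside 23.5%). EPRS1, the glutamate and proline enzyme, shows the widest split, with 53.4, 73.3 and 57.1 TPM in siControl, against 115, 46.3 and 58.3 TPM in siMAD2L1. Replicate 1 was far above all controls and replicate 2 below them, and the log2 difference of 0.16 had an SE of 0.30. NARS1, the asparagine enzyme, was likewise at 120 TPM in replicate 1 against 55.9 and 76.6 TPM. Replicate 1 also kept the most MAD2L1, at 4.47 TPM, and its part in these splits was not tested.

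Each of 17 amino acids has both a cytosolic and a mitochondrial enzyme, and the levels per length of each pair were compared within a library. The cytosolic gene was the higher in 15 of the 17 pairs in the siControl mean. It was the lower for cysteine, with a CARS1 to CARS2 ratio of 0.662 ± 0.026, and for isoleucine, with an IARS1 to IARS2 ratio of 0.979 ± 0.029 (SD, n = 3), which is within its spread of an equal level. The phenylalanine pair, counted as higher, was also within its spread of equal at 1.01 ± 0.14 (SD, n = 3), where FARSB alone stood for the enzyme; FARSA was at 75.7 TPM. The widest gap was that of tryptophan, at 68.5 ± 2.07. Ratios in siMAD2L1 lay above all siControl ratios for 3 of the 17 pairs, glutamate, leucine and serine, and below all for 1, arginine. The ratios of the other pairs overlapped. No share over other gene pairs was taken, so nothing is drawn from these counts. The leucine and serine ratios contain LARS2 and SARS2, already called lower, and are not separate findings. The leucine ratio, LARS1 over LARS2, was 5.73, 6.14 and 6.22 in siControl, against 12.3, 6.76 and 8.46 in siMAD2L1, with replicate 1 farthest from the controls. The serine ratio, SARS1 over SARS2, was 10.3, 10.8 and 9.74 in siControl, against 12.8, 12.1 and 14.2 in siMAD2L1. The arginine ratio, RARS1 over RARS2, was 2.68, 2.52 and 2.97 in siControl, against 1.97, 2.13 and 1.86 in siMAD2L1. With 3 libraries against 3 an exact two-sided permutation test cannot go below 0.1, so these ratios are described by their values.

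Genes that work beside the synthetases were read from lists. The 3 scaffolds of the multisynthetase complex were not called by limma in either direction, and 1 was lower at an unadjusted p under 0.05. That was EEF1E1, at 40.3, 37.5 and 37.7 TPM in siControl, against 27.9, 18.6 and 29.9 TPM in siMAD2L1, with no overlap (log2 difference -0.61, SE 0.17, adjusted p = 0.0626). AIMP2, the scaffold of the highest level, stood at 64.6 TPM in siControl, against 62.7 TPM in siMAD2L1. Of 12 proofreading and accessory factors, most of which clear mischarged tRNAs or finish charging by other routes, limma called none in either direction. Among the 12 was TARS3, a synthetase symbol that ends in 3 and so lay outside the naming rule. It stood at 3.26 TPM in siControl, against 3.72 TPM in siMAD2L1. At an unadjusted p under 0.05, 4 of the 12 were lower and none higher, with no share of all genes at that threshold given. The median was -0.24. The highest of the 12 were AARSD1, which clears mischarged alanine tRNAs, at 23.8 TPM in siControl, against 18.1 TPM in siMAD2L1, and ANKRD16, a partner of the alanine enzyme, at a log2 difference of -0.33 (adjusted p = 0.130).

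The next step after charging is delivery to the ribosome by elongation factors. Of 7 cytosolic elongation factors, 1 rose (beside 3.55% of all genes), 1 fell (14.3%, beside 6.23%) and the median was 0.19, against -0.08 over all genes. EEF1A2, a tissue-restricted form of the factor that carries charged tRNA, rose from 169, 208 and 157 TPM to 322, 317 and 244 TPM (log2 difference 0.72, SE 0.14, adjusted p = 0.0196). The common form EEF1A1, at 8687 TPM in siControl, against 10085 TPM in siMAD2L1, had a log2 difference of 0.22 (adjusted p = 0.0818). EIF5A, which helps the ribosome past difficult peptide bonds, fell from 647, 632 and 667 TPM to 426, 507 and 511 TPM (log2 difference -0.43, adjusted p = 0.0199). No factor of the list was called higher without siControl replicate 1 or 3 or siMAD2L1 replicate 2. None was called lower without siControl replicate 1, 2 or 3, under upper-quartile scaling or with the length trend removed, and none was called in either direction with no filter, without a trend or at an adjusted p under 0.01. Of 9 mitochondrial translation factors none was called by limma in either direction, 2 were lower and none higher at an unadjusted p under 0.05, and the median was -0.19. TUFM, the mitochondrial carrier of charged tRNA, stood at 155 TPM in siControl, against 126 TPM in siMAD2L1 (adjusted p = 0.107), and MRRF, the ribosome recycling factor, had a log2 difference of -0.20 (adjusted p = 0.190).

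All 13 mRNAs of the mitochondrial genome, the products that mitochondrial charging serves, fell in siMAD2L1, with a median log2 difference of -0.62. Under the other scalings the number called was 10 with upper-quartile scaling, 12 with quantile normalization, 13 after rescaling without the mitochondrial and the highest genes, and 7 with the length trend removed, none of them higher. It was 6 without siControl replicate 1, 8 without siControl replicate 2 or 3, and 3 with no filter. In those fits 1.27%, 1.81%, 1.53% and 1.51% of all genes were called lower, in this order. Beside the 13 of 13 stand 6.23% of all genes. The largest falls were those of MT-ATP8 (-1.02), MT-ATP6 (-0.93), MT-CO3 (-0.89) and MT-ND3 (-0.74). Their summed level was 136480, 136040 and 135660 TPM in siControl, against 80441, 80388 and 95842 TPM in siMAD2L1. The summed level of the 17 mitochondrial synthetases was 443, 444 and 424 TPM in siControl, against 429, 377 and 378 TPM in siMAD2L1. Those sums overlap, since replicate 1 at 429 TPM lies above the lowest control, whereas the mRNAs were as low in replicate 1 as in replicate 2.

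The supply of tRNA was read through 2 lists. Of 33 tRNA processing and modification genes 3 fell, none rose and the median was -0.16. They were QTRT1, the catalytic part of the queuine transferase (60.8% of siControl, log2 difference -0.68, adjusted p = 0.0139), OSGEP, of the complex that makes threonylcarbamoyl-adenosine (60.3%, -0.68, adjusted p = 0.0213), and TRMU, the mitochondrial tRNA thiolase (74.4%, -0.41, adjusted p = 0.0242). Of 18 genes of RNA polymerase III, which transcribes cytosolic tRNA genes, 3 fell, none rose and the median was -0.13. Among them were the polymerase subunit POLR3K (log2 difference -0.77, adjusted p = 0.0281) and the factor GTF3C1 (-0.52, adjusted p = 0.0335). These shares, 9.09% and 16.7%, stand beside 6.23% of all genes. Single libraries decided both counts, and the share of all genes called lower moved as well. That share was 1.27%, 1.81% and 1.53% without siControl replicates 1, 2 and 3. It was 11.5%, 3.33% and 2.76% without siMAD2L1 replicates 1, 2 and 3. For the processing genes 0 were called lower without siControl replicate 1, 2 or 3, 1 without siMAD2L1 replicate 2, 2 without replicate 3 and 5 without replicate 1. For RNA polymerase III 0 were called lower without siControl replicate 1 or 3, 1 without siControl replicate 2 or siMAD2L1 replicate 2 or 3, and 4 without siMAD2L1 replicate 1, and the median ran from -0.26 to -0.0034.

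**Figure D4:**
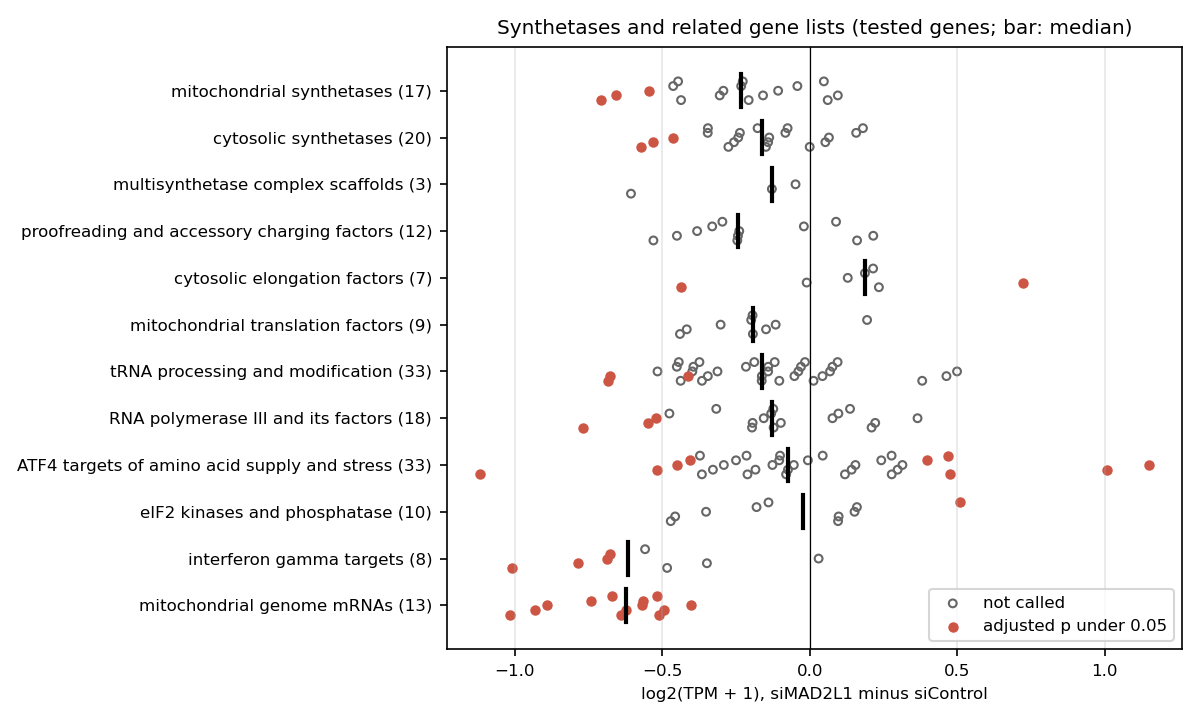
Log2 differences (x axis, log2(TPM + 1), siMAD2L1 minus siControl) of the tested genes of each synthetase group and each list, with 1 point for each gene, called genes in colour and the median as a bar. The synthetase groups sit near -0.2, the interferon gamma targets and mitochondrial mRNAs near -0.6, and the ATF4 targets spread to both sides.

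ATF4 target genes were read because many synthetase genes share this regulator. Of 34 listed genes of amino acid supply and stress, none a synthetase, 33 were tested, 5 rose (beside 3.55% of all genes), 4 fell (12.1%, beside 6.23%) and the median was -0.07. SESN2, a stress-induced inhibitor of mTORC1 signalling, rose from 24.8, 33.5 and 26.8 TPM to 55.1, 68.6 and 68.3 TPM (log2 difference 1.15, SE 0.14, adjusted p = 0.00396). ATF3, a stress transcription factor, rose to 209% of siControl (log2 difference 1.01, adjusted p = 0.00668). In the other direction PSPH, the last enzyme of serine synthesis, fell from 54.2, 61.2 and 58.4 TPM to 24.4, 23.5 and 31.2 TPM (log2 difference -1.12, SE 0.12, adjusted p = 0.00275), and PHGDH, its first enzyme, fell to 69.8% (log2 difference -0.52, adjusted p = 0.0109). ASNS, which makes asparagine, fell to 72.7% of siControl (log2 difference -0.45, adjusted p = 0.0251); it falls outside the naming rule and was chosen after its value was seen. The targets thus changed both ways, and the list held 5 higher and 2 lower under upper-quartile scaling. With a library left out the calls higher and lower were 2 and 1 without siControl replicate 1 and 3 and 1 without siControl replicate 2. They were 7 and 5 without siMAD2L1 replicate 1, and 3 and 2 without any one of the others. Over all genes they ran from 138 and 188 without siControl replicate 1 to 716 and 1706 without siMAD2L1 replicate 1. The median of the list was 0.05 without siMAD2L1 replicate 2. Of 10 genes of the eIF2 kinases and phosphatase, PPP1R15A, the stress-induced phosphatase subunit, rose (142% of siControl, log2 difference 0.51, adjusted p = 0.0186) and none fell. Beside this 1 of 10 stand 3.55% of all genes called higher. No gene of that list was called without siControl replicate 1 or 3 or siMAD2L1 replicate 2 or 3. The call was also absent with no filter, without a trend in limma and at an adjusted p under 0.01.

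The interferon gamma list was read because of WARS1. Of 13 listed genes 8 were tested and 4 of these fell (50%, beside 6.23% of all genes), with a median of -0.62, and none rose. Log2 differences of the tested genes ran from -1.01 to 0.03. CXCL9, CXCL10, CXCL11, CIITA and IDO1 averaged under 1 TPM and were not tested, so the list covers this response only in part. The proteasome subunits PSMB9 and PSMB8 fell to 47.0% and 56.8% of siControl (log2 differences -1.01 and -0.78, adjusted p = 0.0376 and 0.00612), and the transcription factor IRF1 to 60.9% (log2 difference -0.69, adjusted p = 0.0177). Rescaled by upper quartile, by quantiles or with the length trend removed, 3 of the 8 were called lower and none higher. The count fell to 1 of the 8 without siControl replicate 1, 2 or 3 or siMAD2L1 replicate 3. In those fits 1.27%, 1.81%, 1.53% and 2.76% of all genes were called lower. It was 2 of the 8 with the replicate block (3.6% of all genes) and without a trend (4.43%). With no filter it was 2 of 12 tested (1.51%), and at an adjusted p under 0.01 it was 1 of the 8 (1.39%). WARS1 stood at 79.0% of siControl and missed the threshold, and whether it moves with this list was not tested.

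Promoter sequences were read from RefSeq (GRCh38.p14), as 250 bases before to 50 after an annotated start. There were 39 promoter entries for 30 of the 37 genes. AARS2, LARS1, VARS1, VARS2 and YARS1 were among the 7 with none. The core of the amino acid response element, TGATGNAA on either strand, through which ATF4 is known to act, was found in 8 of the 39 (20.5%), against 3.62% of 35116 promoters. Its form TTGCATCA, contained in the core when read on the other strand, was found in 6 of the 39 (15.4%), against 0.866% of all. The 30 bases around the match of those 6 genes are printed because the same 8 letters recur in them, on the strand of the gene, 5′ to 3′, with the match in capitals: AARS1 at chr16:70289675-70289704 (minus strand), CARS1 at chr11:3057407-3057436 (minus), IARS1 at chr9:92293692-92293721 (minus), MARS1 at chr12:57488053-57488082 (plus), NARS1 at chr18:57621804-57621833 (minus) and TARS1 at chr5:33440956-33440985 (plus).
AARS1: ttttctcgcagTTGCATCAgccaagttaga
CARS1: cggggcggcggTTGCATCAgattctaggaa
IARS1: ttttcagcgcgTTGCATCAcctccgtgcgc
MARS1: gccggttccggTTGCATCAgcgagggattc
NARS1: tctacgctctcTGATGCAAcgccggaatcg
TARS1: gcgcctttcgaTTGCATCAgctggtccagc
NARS1 carries the match on the opposite strand, so its letters read as TGATGCAA, and the other 5 carry it as TTGCATCA. In CARS1, IARS1, MARS1, NARS1 and TARS1 the match lies within 15 bases of an annotated start, and in AARS1 it lies 187 bases before it. None of the 6 genes was called, and their log2 differences ran from -0.24 (IARS1) to 0.07 (CARS1). The other genes with the core were GARS1, with a log2 difference of 0.00, and YARS2, with -0.23.

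The other motifs were searched on both strands. The E-box CACGTG was in 5 of the 39 (12.8%, against 7.26% of all), in CARS2, EARS2, IARS1 and MARS2. The interferon gamma activation site TTCNNNGAA was in 7 of the 39 (17.9%, against 7.66%), in CARS1, PARS2, TARS1, WARS1 and WARS2. The core of the nuclear respiratory factor 1 site, GCGCATGC, was in 2 of the 39 (5.13%, against 3.05%), in MARS2 and YARS2. None of the 5 motifs was found in the entries of the 4 called genes that have one, LARS2, FARS2, SARS2 and FARSB. A match here is a run of letters, not a shown binding site, and a missing match says only that those letters are not in the window.

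Of the called genes LARS2 lies on chromosome 3 (45388506 to 45549421, plus strand), VARS1 on chromosome 6 (31777518 to 31795953, minus strand), FARSB on chromosome 2 (222570536 to 222656337, minus strand) and YARS1 on chromosome 1 (32775237 to 32818153, minus strand), all in GRCh38. Neighbours were read because many synthetase genes start beside another gene. A protein-coding gene starts on the other strand within 1000 bases of the start of 11 of the 37 genes, 2 of them called. FARS2 lies on chromosome 6 (5261044 to 5829192, plus strand), and its start is 105 bases from that of LYRM4, which makes a partner of the mitochondrial cysteine desulfurase. LYRM4 stood at 32.3, 24.8 and 31.7 TPM in siControl, against 34.1, 34.8 and 36.1 TPM in siMAD2L1, with a log2 difference of 0.24 (adjusted p = 0.244), so that its sign is the opposite of that of FARS2. SARS2 lies on chromosome 19 (38915266 to 38930896, minus strand), and its first 349 bases overlap the start of MRPS12, a protein of the small mitochondrial ribosomal subunit. MRPS12 stood at 105 TPM in siControl, against 96.4 TPM in siMAD2L1 (log2 difference -0.14, adjusted p = 0.509). HARS1 and HARS2, the cytosolic and mitochondrial histidine enzymes, also start head to head on chromosome 5, and neither was called, at log2 differences of -0.07 and -0.23. In all, 23 of the 37 genes, 4 of them called, are overlapped by a gene on the other strand, and since the strand setting of the counting is not known, reads from both could not be told apart there.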

How the data were processed

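The authors deposited 1 table of TPM for 6 libraries, 3 siControl and 3 siMAD2L1, grouped here by their titles. Per the submitters' processing notes, fastp, HISAT2, DESeq2 1.16.1 and hg38 were used. For the read counter, annotation, strand setting and the step to TPM the tool is not given in the sources used here. TPM keeps no depth, so no counting error is given. The synthetase genes and 11 gene lists were chosen with earlier results of these data known. The 14790 genes averaging 1 TPM or more over all libraries were tested on log2(TPM + 1) by limma-trend (limma 3.58.1, R 4.3.3) with no covariates, and the scripts were tested on simulated data. Adjusted p-values are Benjamini-Hochberg over all genes tested. Positions, overlaps and tRNA sequences are from GENCODE 29 and GRCh38, which held 57974 of 60232 Ensembl identifiers, and promoters from RefSeq. Python 3.11.15 and matplotlib 3.10.9 drew the plots. By rule, called synthetases were named with values in every library, the others by ranges, with values for the most abundant and for partners of called ones; from each list up to 4 called genes of largest difference were named, or the 2 of highest TPM where none was called. Members outside this rule were named after their values were seen, as were TARS3 and neighbouring genes. Among these members were EPRS1, TARS2, EARS2, NARS2, NARS1, QARS1, KARS1, RARS1, RARS2, HARS1, HARS2 and MARS2. Single values of some genes are not reported here, and all counts include these genes.

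The result was recomputed with a pseudocount of 0.1 or 0.5, without the filter or with 5 TPM as its limit, with upper-quartile scaling, quantile normalization, rescaling that leaves out the 20 highest and all mitochondrially encoded genes, removal of a transcript-length trend, library weights, robust variance or no trend in limma, a block for the replicate number, a threshold of 0.01, 1 library left out at a time, and siMAD2L1 replicate 1 as the only knockdown library.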

Additional observations from a re-analysis of the deposited data

How the results depend on the processing

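The number of synthetases called lower was 6, beside 6.23% of all genes, and each count below has the share of its own fit. It was 2 with no filter (1.51%), 1 with quantile normalization (4.74%) and 2 with the length trend removed (4.35%). With library weights it was 16 (22.6%), and QARS1 was called higher, beside 1514 of all 14790 genes. It was 1 with a replicate block (YARS1, 3.6%) and 0 at an adjusted p under 0.01 (1.39%). With a library left out it was 0 to 13 (1.27% to 11.5%). All 1446 genes called became 727 with no filter, 952 without a trend, 4860 with library weights, 868 with the block, 359 at 0.01, and 326 to 2422 with a library left out. Of all calls 63.7% were lower, against 52.5% with upper-quartile scaling, 50.5% with quantile normalization, 44.1% with the length trend removed and 73.3% with TPM rescaled without mitochondrially encoded and the 20 highest genes. Deviations of same-numbered libraries correlated at 0.019, 0.00898 and 0.0631, and those of unlike-numbered ones at -0.0525 to 0.0336. With 3 libraries per group these values cannot decide whether the replicate numbers pair the libraries. MAD2L1 kept its log2 difference of -2.22 but not its call at 0.01, and ran from -2.61 to -1.80 with a library left out; leaving out siControl replicates gave adjusted p from 0.0547 to 0.0597. With siMAD2L1 replicate 1 alone the mitochondrial median was -0.090, and the sign of uncalled genes turned for AARS2 (0.0047), CARS2 (-0.044), IARS2 (0.20), LARS1 (0.11), NARS1 (0.43), NARS2 (0.054), PARS2 (0.050), QARS1 (-0.019), TARS1 (0.29) and VARS2 (0.045). It also turned for AARS2 with upper-quartile scaling (0.00027), quantile normalization (0.093) and the length trend removed (0.028), where HARS1 was 0.0066 and KARS1 0.016, and for GARS1 with quantile normalization (-0.080) and the rescaled TPM (-0.048). With a library left out, AARS2 ran from -0.10 to 0.0083, EPRS1 from -0.22 to 0.43, GARS1 from -0.046 to 0.057, MARS2 from -0.0025 to 0.12, NARS1 from -0.44 to 0.11, RARS2 from -0.011 to 0.21 and TARS1 from -0.36 to 0.0019. The cause of these changes was not tested, and with the depth unknown no limit of detection can be given.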
